A study of Mus musculus with 15 samples.

Results

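Actb, Gapdh, Ppia, Hprt, Tbp and Gusb are genes to which other transcripts are commonly scaled in liver work, and their own levels were followed here through mouse liver development. They were taken by name, as the genes whose RefSeq accession stood on a probe spotted 20 times on every array, and the rule used no measured value. All 6 were found, with 1 probe each, among 59705 features of the array, of which 112 carried a gene symbol. The study measured coding and long non-coding RNA in whole livers of C57BL/6 mice taken on days E12.5, E14.5 or E17.5 of gestation, from neonates, and from adults of 8 weeks. There were 3 arrays per stage and 15 in all, with no treatment or mutant. RNA was depleted of ribosomal RNA and labelled by random priming along whole transcripts, on 1-colour arrays. Whether the 3 livers of a stage were separate animals or pools is not given by the labels, so a p-value here measures only how far these arrays differ, and that difference may be technical.

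A reference gene serves only if its transcript keeps a steady share of the RNA across the samples compared. The 6 genes do unrelated work: Actb encodes cytoplasmic beta-actin, Gapdh a glycolytic dehydrogenase, Ppia the peptidyl-prolyl isomerase cyclophilin A, Hprt a purine salvage transferase, Gusb the lysosomal beta-glucuronidase, and Tbp the TATA-binding protein of the general transcription machinery. The fetal liver is also the main site of blood formation before birth, whereas adult liver is mostly hepatocytes by mass, so the mixture of cells behind each value shifts with age. In such bulk RNA, fewer cells of a type and less RNA per cell cannot be told apart.

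The probe sequences were not used here. The 100 bases before the annotated start are shown for the 5 genes with an entry in the promoter set used, which held none for Actb. They come from RefSeq on GRCm38.p6 and are written 5′ to 3′, with capitals marking TATAAA and GGGCGG, the TATA box and GC box letters, or GGGCGG read from the other strand.
Gapdh, chr6:125165774-125165873, minus strand: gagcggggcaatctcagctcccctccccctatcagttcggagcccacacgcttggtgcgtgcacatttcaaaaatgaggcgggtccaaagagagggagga
Ppia, chr11:6415767-6415866, plus strand: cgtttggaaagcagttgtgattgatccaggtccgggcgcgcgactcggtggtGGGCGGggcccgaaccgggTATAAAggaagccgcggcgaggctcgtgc
Hprt, chrX:52987978-52988077, plus strand: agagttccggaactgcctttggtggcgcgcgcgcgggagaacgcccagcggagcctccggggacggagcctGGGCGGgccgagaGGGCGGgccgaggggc
Tbp, chr17:15499788-15499887, plus strand: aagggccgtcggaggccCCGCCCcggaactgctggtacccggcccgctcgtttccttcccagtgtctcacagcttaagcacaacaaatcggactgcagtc
Gusb, chr5:130003050-130003149, minus strand: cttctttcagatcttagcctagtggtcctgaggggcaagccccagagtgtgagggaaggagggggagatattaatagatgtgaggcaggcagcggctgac
Ppia alone of these 5 genes held TATAAA within 250 bases before its start, 29 bases upstream of it, as did 12.4% of the 32851 promoters in the RefSeq table. Ppia, Hprt and Tbp held GGGCGG on either strand, with 4, 2 and 1 copies in 250 bases, and Gapdh and Gusb had 0. GGGCGG stood in 32.7% of all promoters. CCAAT stood in 33.8% of all promoters and in 0 of these 5. The GC content of the 250 bases was 55.6% for Gapdh, 72.4% for Ppia, 59.6% for Hprt, 52% for Tbp and 49.6% for Gusb, beside a median of 52.4% over the table. A letter match is a description and does not show that a factor binds there.

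By the scan date in the file headers the arrays fell into 2 sets, called slides here. The first held E12.5, E14.5 and E17.5 replicates 1 and 2 (8 arrays), and the second held E17.5 replicate 3 and all neonatal and adult arrays (7 arrays). E17.5 replicate 1 stood apart: 80.9% of its noncontrol spots and 55.8% of its negative-control spots were called well above background, against 50.9% to 62.9% and 4% to 9.58% on the other 14 arrays. The 75th percentile of the probe signal, on which each array was scaled, ranged from 145 to 301 units, and E12.5 replicate 1 and adult replicates 1 and 3 had the lowest values. All 1800 spots of the 6 genes were well above background, 0 were saturated, and 90 that the scanner software had marked as outliers were left out. None of the 10 hepatocyte markers looked up had a probe with a gene name, so the tissue label was not checked against them.

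Actb, the beta-actin gene (NM_007393.3), had one of the 2 smallest spans between stages after scaling on the 75th percentile, with Ppia. Its signal, in linear units before scaling between arrays, was 15854, 55142 and 43710 on E12.5 arrays, 33061, 35743 and 37667 on E14.5 arrays, 27404, 24774 and 40058 on E17.5 arrays, 35817, 34216 and 35223 on neonatal arrays, and 21086, 28760 and 22726 on adult arrays, each the mean of up to 20 spots. The 3 E12.5 arrays held both the lowest and the highest of these 15 signals. After scaling, the level (log2 of the signal over the array's 75th percentile) averaged 7.17 ± 0.45 at E12.5, 6.99 ± 0.09 at E14.5, 7.05 ± 0.55 at E17.5, 7.28 ± 0.11 in neonates and 7.09 ± 0.18 in adults (SD, n = 3 each). The span between its highest and lowest stage mean was 0.29 log2 units, less than its pooled SD within stages of 0.34. The E14.5 arrays (6.89 to 7.06) lay below the neonatal arrays (7.19 to 7.40), and every other pair of stages overlapped. Without E17.5 replicate 3 the span was 0.52.

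Ppia (NM_008907.1), the cyclophilin A gene, had a span close to that of Actb. Its signal was 140034, 158813 and 151735 on E12.5 arrays, 150120, 152249 and 144098 on E14.5 arrays, 115828, 111537 and 143602 on E17.5 arrays, 123570, 137788 and 133764 on neonatal arrays, and 119318, 129138 and 101927 on adult arrays. Unscaled, the 6 arrays of E12.5 and E14.5 included the highest values and adult replicate 3 the lowest. The scaled level averaged 9.32 ± 0.44, 9.06 ± 0.12, 9.09 ± 0.43, 9.18 ± 0.07 and 9.37 ± 0.22 log2 units from E12.5 to adult (SD, n = 3 each), a span of 0.31 beside a pooled SD of 0.30. Without E17.5 replicate 3 it was 0.49, below that of Actb, so the order of these 2 genes depended on single arrays.

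Gapdh (NM_008084.2), the glycolytic dehydrogenase, differed little between stages before scaling and more after it. Its signal was 137583, 165950 and 169295 on E12.5 arrays, 147376, 156208 and 155652 on E14.5 arrays, 138852, 138423 and 180840 on E17.5 arrays, 166075, 170263 and 174569 on neonatal arrays, and 161584, 181539 and 147097 on adult arrays. The stage means of log2 signal differed by at most 0.17 before scaling. The scaled level averaged 9.39 ± 0.36, 9.10 ± 0.07, 9.39 ± 0.46, 9.56 ± 0.05 and 9.86 ± 0.21 from E12.5 to adult (SD, n = 3 each), a span of 0.76. The brightest Gapdh signal reached 23.3% of the scanner's saturation value.

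Hprt (NM_013556.2), the purine salvage gene, was low in adult liver. Its signal was 42989, 43502 and 43957 on E12.5 arrays, 45800, 49667 and 45434 on E14.5 arrays, 28056, 28702 and 42510 on E17.5 arrays, 34421, 40906 and 44221 on neonatal arrays, and 21671, 21231 and 15238 on adult arrays. Every adult array lay below every other array in this unscaled signal. The scaled level averaged 7.54 ± 0.51, 7.39 ± 0.08, 7.17 ± 0.57, 7.45 ± 0.10 and 6.77 ± 0.28 from E12.5 to adult (SD, n = 3 each), a span of 0.77.

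Tbp (NM_013684.3), the TATA-binding protein gene, had the largest span of the 6 after scaling. Its signal was 926, 1988 and 2314 on E12.5 arrays, 1662, 1788 and 1615 on E14.5 arrays, 1179, 981 and 1519 on E17.5 arrays, 952, 1223 and 1317 on neonatal arrays, and 600, 907 and 563 on adult arrays. The 3 adult arrays were the lowest of the 15. The scaled level averaged 2.79 ± 0.21, 2.59 ± 0.09, 2.41 ± 0.47, 2.35 ± 0.16 and 1.94 ± 0.04 from E12.5 to adult (SD, n = 3 each), a span of 0.85 or 1.80-fold.

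Gusb (NM_010368.1), the lysosomal beta-glucuronidase gene, was highest in neonates and lowest in adults after scaling. Its signal was 2599, 4305 and 4748 on E12.5 arrays, 3522, 4339 and 3858 on E14.5 arrays, 3273, 2951 and 4511 on E17.5 arrays, 3521, 4938 and 4443 on neonatal arrays, and 1981, 2866 and 1777 on adult arrays. Adult replicate 2 lay above E12.5 replicate 1 before scaling. The scaled level averaged 4.0 ± 0.09, 3.80 ± 0.04, 3.96 ± 0.51, 4.23 ± 0.20 and 3.62 ± 0.01 from E12.5 to adult (SD, n = 3 each), a span of 0.61. The plot of unscaled signal shows the arrays of every stage for all 6 genes.

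**Figure D1:**
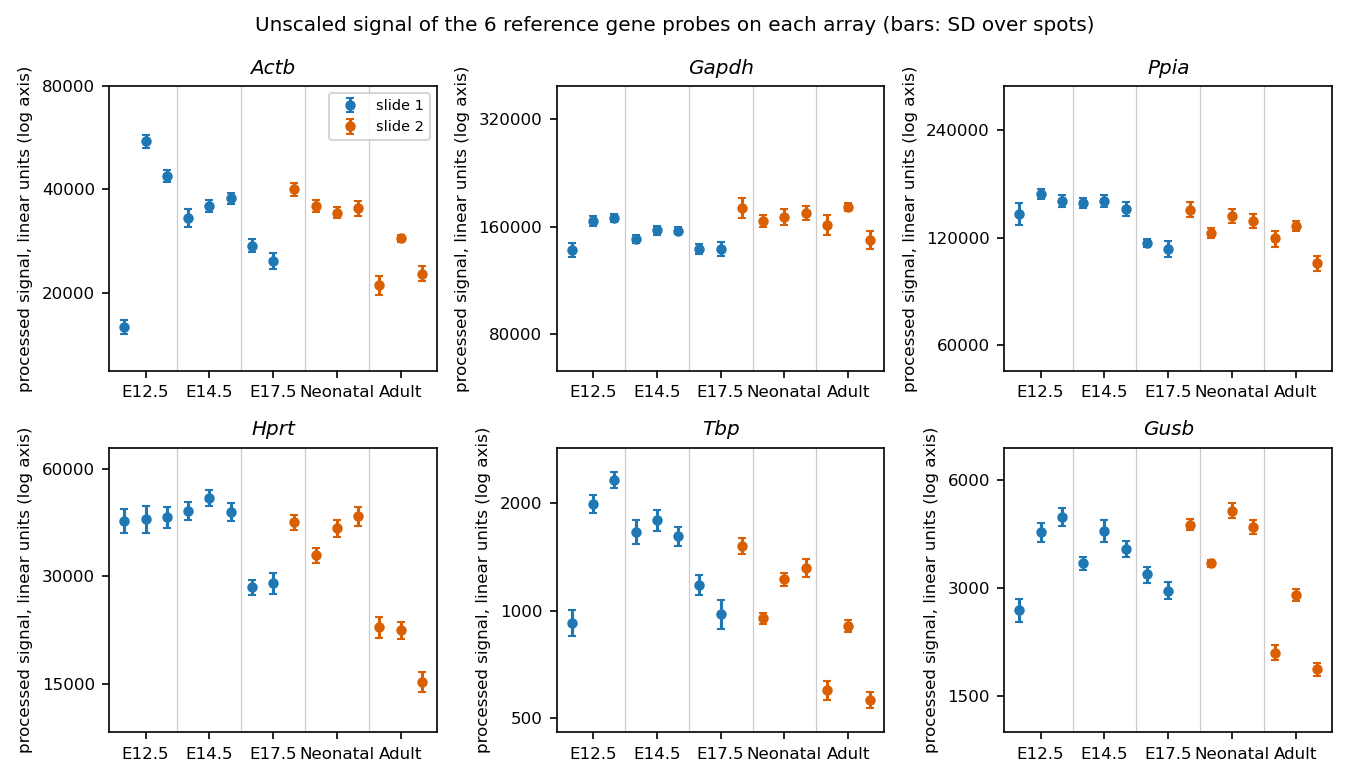
Unscaled processed signal (linear units, log axis) of the 6 genes on the 15 arrays, ordered by stage with 3 arrays each; points are means over spots, bars are the SD over spots, and colour gives the slide. The bars are shorter than the full range of arrays of each gene, though not than every gap between arrays, as for Hprt at E12.5. The 3 adult arrays lie at the bottom for Hprt and Tbp, and the E12.5 arrays of Actb range from 15854 to 55142.

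The spread between spots was small beside the spread between arrays pooled over stages. The coefficient of variation over the spots of 1 array had a median over arrays between 3.97% for Gapdh and 5.99% for Hprt, and lay between 2.18% and 9.19% on any array. The SD between arrays of a stage, pooled over stages, was 0.24 for Tbp, 0.25 for Gusb, 0.28 for Gapdh, 0.30 for Ppia, 0.34 for Actb and 0.37 for Hprt, all in log2 units and all below the median of 0.44 over the 37357 features tested. Within stages, the SD was at most 0.12 at E14.5 and 0.20 in neonates, and it was largest at E17.5 for each gene except Ppia, whose E12.5 SD of 0.44 was slightly larger than its 0.43 at E17.5. For each of the 6 genes, E17.5 replicate 3, the E17.5 array on the second slide, read higher than the mean of replicates 1 and 2 on the first slide, by 0.61 (Ppia) to 0.90 (Actb) log2 units. Replicate 3 was also the only E17.5 array for which the scanner software recorded a further, multiplicative detrending. Whether slide, that processing step or the raised background of replicate 1 has a part in that gap was not tested.

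**Figure D2:**
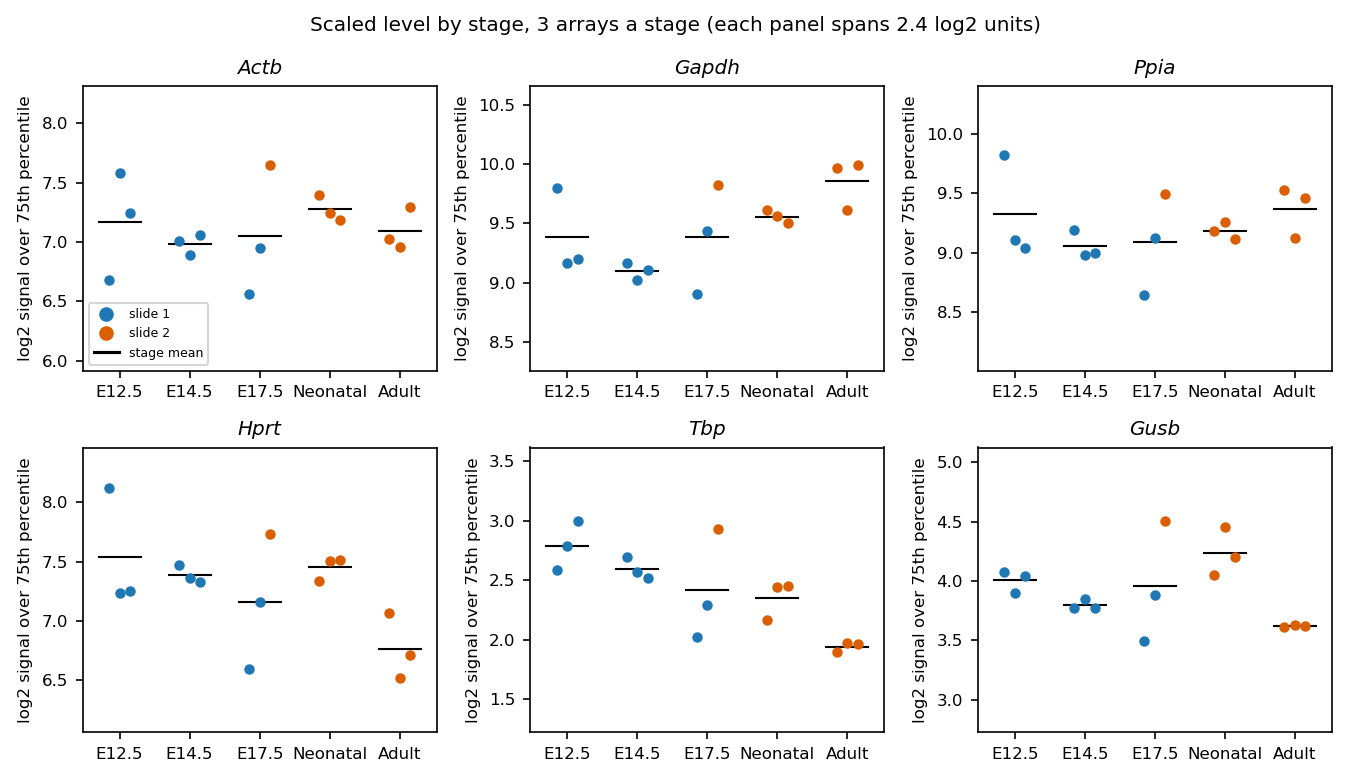
Scaled level (log2 signal over the array's 75th percentile) by stage; points are arrays coloured by slide, and lines are stage means of 3 arrays. Adult arrays of Tbp lie between 1.89 and 1.97, below every array of the other stages. For Actb, E14.5 arrays lie below neonatal arrays, and every other pair of stages overlaps.

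The 6 genes spanned less between stages than most tested features. The median span over all tested features was 1.49 log2 units, with quartiles of 0.97 and 2.39, and the median of the 6 genes was 0.69. A smaller span was found for 0.642% of tested features in the case of Actb, 0.854% for Ppia, 7.70% for Gusb, 14.1% for Gapdh, 14.4% for Hprt and 18.6% for Tbp. A span includes the spread between arrays. The order of the genes by span depended on the scaling. With no scaling the spans were 0.17 for Gapdh, 0.37 for Ppia, 0.56 for Actb, 0.98 for Gusb, 1.29 for Hprt and 1.32 for Tbp, so Gapdh moved to the smallest place, and quantile normalization also put Gapdh first, at 0.14. Scaling on the mean of the 6 genes gave Actb 0.19 and Gapdh 0.81. Over the settings that change scaling, background or spot averaging, the span ran from 0.17 to 0.56 for Actb and from 0.22 to 0.48 for Ppia, whereas it ran from 0.58 to 1.29 for Hprt and from 0.61 to 1.32 for Tbp.

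**Figure D3:**
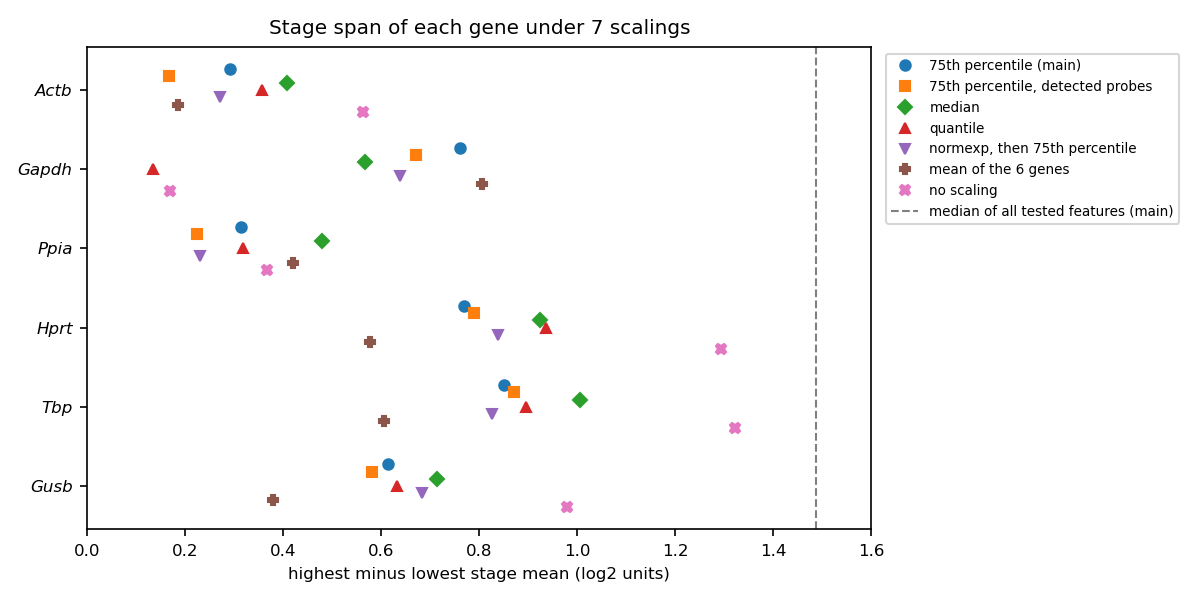
Stage span (highest minus lowest stage mean, log2 units) of each gene under 7 scalings; the dashed line is the median span of all tested features, 1.49. Gapdh ranges from 0.14 to 0.81 with the scaling, Actb and Ppia stay at or below 0.56, and the unscaled spans of Hprt and Tbp exceed 1.2.

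Between adjacent stages none of the 6 genes passed the test (limma over all 37357 tested features, Benjamini-Hochberg adjusted p below 0.05). E14.5 over E12.5 called 4.93% of tested features and 0 of the 6 genes, with 0 at an unadjusted p below 0.05. E17.5 over E14.5 called 7.11% of features and 0 of the 6, also with 0 unadjusted. Neonatal over E17.5 called 18.1% of features and 0 of the 6, with 0 unadjusted. The smallest adjusted p of these 3 steps was 0.461, for Gusb in neonates over E17.5, a difference of 0.28 ± 0.25 (SE; 95% interval -0.25 to 0.81). An interval this wide leaves a difference of up to 0.81 log2 units within it. Of the 3 E17.5 arrays, 2 are on the other slide than the neonatal arrays, and with slide as a block the neonatal minus E17.5 difference turned sign for 5 of the 6 genes without passing, to -0.37 for Actb, -0.27 for Gapdh, -0.31 for Ppia, -0.28 for Hprt and -0.27 for Gusb, beside 0.22, 0.17, 0.10, 0.29 and 0.28 without it, and Tbp was -0.58 beside -0.06. In E17.5 over E14.5 the block turned Actb to -0.23, Ppia to -0.17 and Gusb to -0.11, beside 0.07, 0.03 and 0.16 without it. With the block, neonatal arrays are set against E17.5 replicate 3 alone, and E14.5 arrays against E17.5 replicates 1 and 2. The median absolute difference of the 6 genes in the 3 steps was 0.20, 0.17 and 0.20, beside 0.33, 0.44 and 0.55 over all tested features. The arrays of E14.5 and E12.5 did not overlap for 2 of the 6 genes, Gapdh and Gusb, beside 27.9% of features. In the other 2 steps all 6 overlapped, whereas 29.6% of features in E17.5 over E14.5 and 32.3% in neonatal over E17.5 did not.

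Adult over neonatal liver lies within the second slide, and it called 25.9% of features and 0 of the 6 genes, with 2 at an unadjusted p below 0.05. Gusb was -0.61 ± 0.25 (SE; 95% interval -1.14 to -0.08, adjusted p = 0.0825 by limma) and Hprt -0.69 ± 0.31 (interval -1.35 to -0.02, adjusted p = 0.121). Gusb levels were 3.61, 3.63 and 3.62 on adult arrays, against 4.05, 4.45 and 4.20 on neonatal arrays, with no overlap. Hprt levels were 7.07, 6.52 and 6.72 on adult arrays, against 7.34, 7.50 and 7.52 on neonatal arrays, also with no overlap. Gusb passed in a fit of the second-slide arrays alone (adjusted p = 0.0447), as did Hprt (adjusted p = 0.0426). Gusb also passed without E17.5 replicate 1 (adjusted p = 0.0457) and without E17.5 replicate 3 (adjusted p = 0.0194), arrays that enter this comparison only through the estimate of spread. Tbp was -0.41 ± 0.24 (interval -0.93 to 0.12), Gapdh 0.30 ± 0.26 (-0.27 to 0.86), Ppia 0.19 ± 0.27 (-0.40 to 0.77) and Actb -0.18 ± 0.29 (-0.81 to 0.44). The 2 stages did not overlap for 4 of the 6 genes, Gapdh, Hprt, Tbp and Gusb, beside 51.9% of features.

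Adult over E12.5, the widest comparison in age, called 50.8% of tested features and 1 of the 6 genes, Tbp. Tbp levels were 1.89, 1.97 and 1.96 on adult arrays, against 2.58, 2.79 and 3.0 on E12.5 arrays, with no overlap. Tbp fell by 0.85 log2 units (SE 0.24, 95% interval -1.38 to -0.32, adjusted p = 0.0101 by limma), 1.80-fold lower in adults. Tbp passed in all 27 alternatives, at -1.62 to -0.59. Hprt was -0.77 ± 0.31 in adults (interval -1.44 to -0.10, adjusted p = 0.0525), at 7.07, 6.52 and 6.72 on adult arrays, against 8.12, 7.24 and 7.25 on E12.5 arrays. Without E12.5 replicate 1, the highest of them, the difference was -0.48 with an adjusted p of 0.204, and without E17.5 replicate 1 Hprt passed with an adjusted p of 0.0310. Hprt also passed without E12.5 replicate 2 (-0.92, adjusted p = 0.0443), E12.5 replicate 3 (-0.91, 0.0471), E17.5 replicate 3 (0.0251) or adult replicate 1 (-0.92, 0.0468), and each of these raised the count to 2. The remaining 4 genes were 0.47 ± 0.26 for Gapdh (interval -0.10 to 1.03), 0.05 ± 0.27 for Ppia (-0.53 to 0.63), -0.08 ± 0.29 for Actb (-0.70 to 0.55) and -0.38 ± 0.25 for Gusb (-0.91 to 0.15), with adjusted p from 0.153 to 0.897. Gapdh passed without E12.5 replicate 1, at 0.67 with an adjusted p of 0.0486, which also made the count 2. The groups did not overlap for 3 of the 6 genes, Hprt, Tbp and Gusb, beside 58% of features. The median absolute difference was 0.43 for the 6 genes and 0.96 for all tested features.

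Adult and E12.5 livers lay on different slides, which only the 3 E17.5 arrays connect. A block for slide therefore takes from each difference the gap between E17.5 replicate 3 and the mean of replicates 1 and 2. That gap was 0.61 (Ppia) to 0.90 (Actb) log2 units, so the block values rest on 1 second-slide E17.5 array and are not separate evidence. With slide as a block the adult minus E12.5 differences were -1.62 for Tbp (adjusted p = 0.0025), -1.63 for Hprt (adjusted p = 0.0204), -1.20 for Gusb (adjusted p = 0.0132), -0.97 for Actb, -0.57 for Ppia and -0.19 for Gapdh, all lower than without the block. With that block and without E17.5 replicate 1, Hprt was -1.34 and did not pass (adjusted p = 0.0722). The moderated F test over the 5 stages called 61% of features and 0 of the 6 genes, with 1 at an unadjusted p below 0.05. Its adjusted p was 0.0637 for Tbp, 0.156 for Gapdh, 0.194 for Hprt, 0.241 for Gusb, 0.735 for Ppia and 0.887 for Actb. Leaving out E17.5 replicate 1 raised that count to 1 and leaving out E17.5 replicate 3 raised it to 2.

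A ratio of 2 genes on the same array does not depend on the scaling between arrays. The ratio's size depends on the probes, so only its change between arrays is described. The ratio of Gapdh to Ppia was the steadiest of the 15 pairs, with an SD of 0.19 log2 units over the 15 arrays and of 0.06 within stages. It was -0.03, 0.06 and 0.16 on E12.5 arrays, -0.03, 0.04 and 0.11 on E14.5 arrays, 0.26, 0.31 and 0.33 on E17.5 arrays, 0.43, 0.31 and 0.38 on neonatal arrays, and 0.44, 0.49 and 0.53 on adult arrays. Every array of E17.5 or later lay above every array of E12.5 and E14.5, the E17.5 arrays of both slides included. The adult minus E12.5 difference of this ratio was 0.42 ± 0.17 (SE, larger adjusted p = 0.0559 by limma). This SE is limma's, which draws the spread of each feature towards that of all tested features. It is wide beside the ratio's own SD of 0.06 within stages, so it does not measure the spread of this ratio alone. The ratio of Gapdh to Tbp was the least steady pair, with an SD of 0.58. Averaged over its 5 partners, the SD of the log2 ratio was 0.32 for Gusb, 0.34 for Ppia, 0.38 for Actb, 0.39 for Hprt, 0.40 for Tbp and 0.42 for Gapdh.

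Some ratios of Gapdh or Ppia to Hprt, Tbp or Gusb rose between young and adult liver. A pair was counted where both fits, each with the arrays scaled on 1 gene of the pair, gave the other an adjusted p below 0.05. In adult over E12.5 liver, 5 of the 15 pairs passed; with arrays scaled on 1 gene, that comparison called 39.4% of features on Actb, 45.3% on Ppia, 45.8% on Gusb, 47.5% on Hprt, 51.5% on Gapdh and 52.2% on Tbp. The ratio of Gapdh to Hprt was 2.90, 3.1 and 3.27 on adult arrays, against 1.68, 1.93 and 1.95 on E12.5 arrays, and rose by 1.24 ± 0.21 (SE, adjusted p = 0.00025). The ratio of Gapdh to Tbp was 8.07, 7.64 and 8.03 on adult arrays, against 7.22, 6.38 and 6.19 on E12.5 arrays, and rose by 1.32 ± 0.28 (adjusted p = 0.00133). In neither ratio did the groups overlap. Gapdh to Tbp was higher on E12.5 replicate 1 than on the other E12.5 arrays, and higher on adult replicates 1 and 3 than on adult replicate 2. These arrays had the lowest 75th percentiles, and whether array brightness has a part in the ratio was not tested. Ratios of Gapdh to Gusb (0.85 ± 0.23), Ppia to Hprt (0.82 ± 0.20) and Ppia to Tbp (0.90 ± 0.30) rose as well. Ppia to Gusb did not pass (0.43 ± 0.24, adjusted p = 0.164), nor did Actb to Tbp (0.77 ± 0.25, adjusted p = 0.0536) or Actb to Hprt (0.69 ± 0.38, adjusted p = 0.190). Actb to Tbp passed without E12.5 replicate 2 (0.98, adjusted p = 0.0198), E17.5 replicate 1 (adjusted p = 0.0491) or E17.5 replicate 3 (adjusted p = 0.0397), and Gapdh to Ppia passed without E17.5 replicate 3 (adjusted p = 0.0226).

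The ratios separated within the second slide too. With arrays scaled on 1 gene, adult over neonatal liver called 14.8% of features on Actb, 20.5% on Ppia, 22.3% on Gapdh, 26% on Tbp, 38.7% on Gusb and 38.8% on Hprt. In that comparison, 4 of the 15 pairs passed in the fit of all 15 arrays: Gapdh to Hprt (0.99 ± 0.21, adjusted p = 0.00306 by limma), Gapdh to Gusb (0.91 ± 0.23), Ppia to Hprt (0.87 ± 0.20) and Ppia to Gusb (0.80 ± 0.24). The ratio of Ppia to Hprt was 2.46, 2.60 and 2.74 on adult arrays, against 1.84, 1.75 and 1.60 on neonatal arrays. The ratio of Gapdh to Gusb was 6.35, 5.99 and 6.37 on adult arrays, against 5.56, 5.11 and 5.30 on neonatal arrays. Between the other adjacent stages 0 of the 15 pairs passed. E12.5 replicate 1 had a 75th percentile of 155, beside 288 and 289 on the other E12.5 arrays. Its signal was also low for Actb (15854 beside 55142 and 43710), Tbp (926 beside 1988 and 2314) and Gusb (2599 beside 4305 and 4748). Gapdh, Ppia and Hprt differed less there. Leaving out this array brought the adult over E12.5 count to 8 pairs, adding Ppia to Gusb (0.65), Actb to Gapdh (-0.99) and Tbp to Gusb (-0.60). The block for slide brought it to 3: Gapdh to Hprt, Gapdh to Tbp and Ppia to Hprt. Gapdh to Gusb had an adjusted p of 0.0582 with that block. Ppia to Tbp was also lost without E12.5 replicate 2, E12.5 replicate 3, adult replicate 1 or adult replicate 3, with an adjusted p of up to 0.119. Ppia to Gusb in adult over neonatal liver was lost without neonatal replicate 2, neonatal replicate 3, adult replicate 1 or adult replicate 3, with an adjusted p of up to 0.103. In the same comparison Gapdh to Tbp (0.71) was gained in a fit of the second-slide arrays alone (adjusted p = 0.0442 by limma). Without E12.5 replicate 1, Gapdh to Tbp (adjusted p = 0.0209) and Ppia to Tbp (0.59, adjusted p = 0.0440) were gained.

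**Figure D4:**
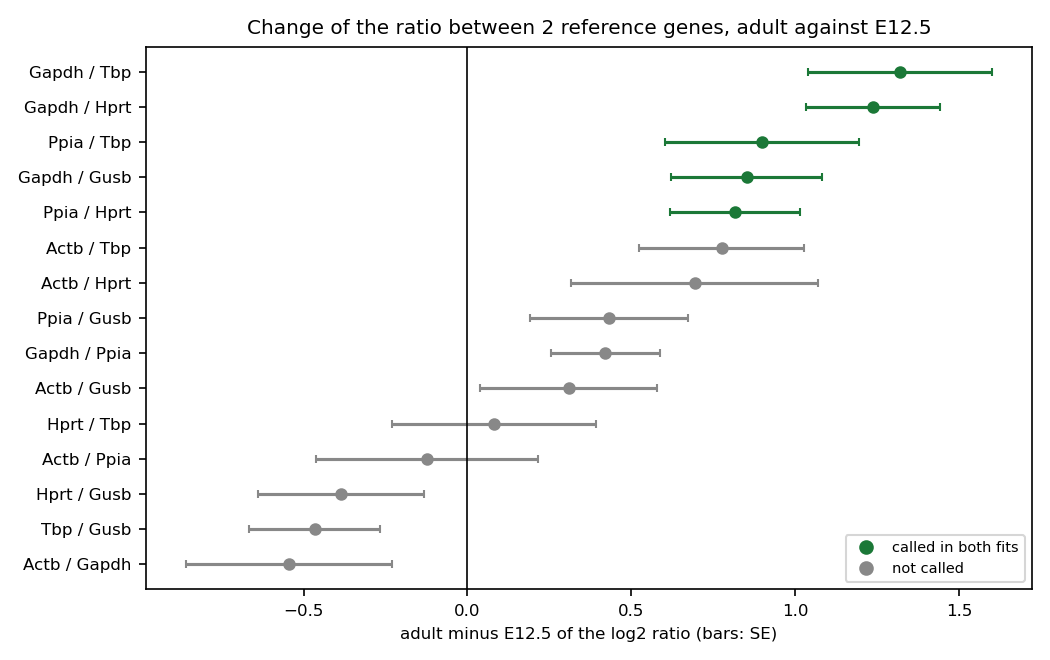
Adult minus E12.5 difference of the log2 ratio of each pair of genes, with SE bars from the limma fit over 15 arrays; green pairs passed in both fits. The 5 green pairs, from 0.82 to 1.32, all set Gapdh or Ppia over Hprt, Tbp or Gusb, and Hprt over Tbp and Actb over Ppia lie nearest 0.

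The gene taken for scaling shifted the difference of every other gene alike, by 1.32 log2 units between Gapdh and Tbp in adult over E12.5 liver. Tfrc, the transferrin receptor that takes up iron and is abundant on erythroid precursors, had scaled levels of 5.81, 5.63 and 5.06 on adult arrays, against 9.50, 8.62 and 8.54 on E12.5 arrays. Its adult minus E12.5 difference was -3.86 ± 0.26 (SE) with arrays scaled on Gapdh, -3.44 ± 0.24 on Ppia, -3.31 ± 0.43 on Actb, -3.01 ± 0.28 on Gusb, -2.62 ± 0.24 on Hprt and -2.54 ± 0.34 on Tbp, beside -3.39 ± 0.34 on the 75th percentile. As a fold, that is 10.8-fold lower on Ppia and 5.81-fold lower on Tbp. Hmgcs1, a cholesterol synthesis enzyme, was 2.61-fold higher in adults on Gapdh and 6.51-fold higher on Tbp. Gk, glycerol kinase, was 9.10-fold higher on Gapdh and 22.7-fold higher on Tbp. Tuba1b, an alpha-tubulin, was 7.34-fold lower on Gapdh and 2.94-fold lower on Tbp, and B2m, the light chain of MHC class I, was 4.62-fold higher on Gapdh and 11.5-fold higher on Tbp. All 5 of these genes, chosen as examples with their change known, passed under each of the 7 scalings.

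Which direction was the more frequent over all features depended on the choice. With the 75th percentile, 9619 features were called higher and 9359 lower in adults, 50.7% higher. The share higher was 33.9% on Gapdh, 50.3% on Ppia, 57% on Actb, 67.5% on Gusb, 80.4% on Hprt and 81.7% on Tbp. The median difference of all features moved with it, to -0.51 on Gapdh and to 0.81 on Tbp, beside -0.04 on the 75th percentile.

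**Figure D5:**
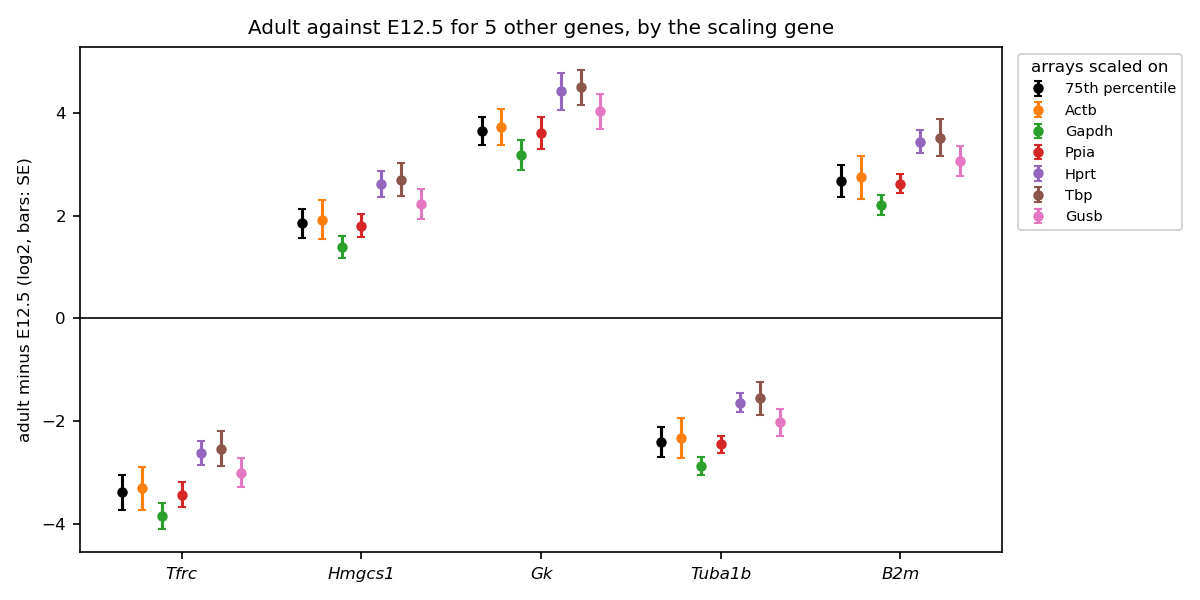
Adult minus E12.5 difference (log2, SE bars, limma over 15 arrays) of 5 other genes when arrays are scaled on the 75th percentile or on 1 of the 6 genes. No gene changes direction, and in each the value on Gapdh is the lowest and the value on Tbp the highest.

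Genes with a like course were looked for among the 74 other tested features that carry a symbol, by the SD over the 15 arrays of the log2 ratio. Nono, an RNA-binding nuclear protein gene, followed Tbp with an SD of 0.13, and Jrkl came next at 0.29. Fam177a2 (0.16) and Dhrsx (0.16) were nearest to Ppia, and Brox (0.18) and Ppia (0.19) to Gapdh. For Hprt they were Zfp131 (0.25) and Gusb (0.29), for Gusb they were Dhrsx (0.27) and Hprt (0.29), and for Actb they were Gusb (0.29) and Zf12 (0.32). All points share the arrays and their scaling, which cancels in the ratio.

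Of 29 further genes in common use as references, 6 had a probe with a symbol, and their spans were 0.84 log2 units or wider. In adult over E12.5 liver B2m rose, and Tfrc, Tuba1b, Nono and Rpl13a, a protein gene of the large ribosomal subunit, fell, while the chaperone gene Hsp90ab1 did not pass (-0.58 ± 0.34, adjusted p = 0.163 by limma). Their spans were 3.39 for Tfrc, 2.68 for B2m, 2.41 for Tuba1b, 2.03 for Rpl13a, 0.89 for Nono and 0.84 for Hsp90ab1, so the last of these and Nono were close to Tbp at 0.85. In the F test 4 of the 6 passed, all but Nono and Hsp90ab1. The 9 other genes spotted 20 times, which include these 6, passed in 7 cases in adult over E12.5 liver, 4 in adult over neonatal liver, 2 in neonatal over E17.5 liver and 0 in the remaining steps. Of the genes that work beside the 6, the lists of glycolysis (16 genes), actin (10), cyclophilins (7), nucleotide salvage (5), basal transcription (10) and lysosomal hydrolases (8) had 0 with a named probe, so none is described.

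Tfrc is also the 1 gene of 11 erythroid markers with a named probe. Its range of 5.06 to 5.81 on adult arrays and 8.54 to 9.50 on E12.5 arrays was lower in adults, as Tbp was, and the part of erythroid cells in the values of the 6 genes was not tested. The lists of macrophage (4 genes), megakaryocyte (2) and cholangiocyte (3) markers had 0 with a named probe. Gapdh, Ppia, Actb and Hprt have near-identical processed copies in the mouse genome, and whether their probes also bind those transcripts was not tested.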

How the data were processed

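Per the file headers, arrays were read with Agilent Feature Extraction 11.0.1.1, whereas the submitters' processing notes name 10.7.3.1. The deposited processed signal is a linear intensity, background-subtracted and spatially detrended by that software, with no scaling between arrays. The processing was not the same on all arrays. A further multiplicative detrending was recorded for E17.5 replicate 3, the neonatal arrays and adult replicates 1 and 3. It was not recorded for adult replicate 2 or any first-slide array. Its effect on the values was not tested. The authors' deposited value table is in log2 units, and none of the probes spotted 20 times is in it, so it was used only to check units.

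Control and outlier spots were left out, spots of a probe were averaged, and log2 of the mean minus the array's 75th percentile over noncontrol probes was tested with limma 3.58.1 in R 4.3.3 (mean per stage, 15 arrays, two-sided, Benjamini-Hochberg over all 37357 features that all 3 arrays of at least 1 stage gave as well above background, adjusted p below 0.05). The brightest probe stood for a symbol. For ratios, the same fit was made with arrays scaled on each gene in turn. The fit was tested on simulated data. Symbols came from RefSeq accessions (116 of 123 matched, GRCm38.p6 tables). The 3 arrays per stage limit the precision. No 2 arrays correlated above 0.985. Named were the 6 genes, the 2 symbol-bearing genes nearest to each, 5 examples for the scaling, and the lists. The genes, lists and examples were chosen with earlier results of these data known. Slides were inferred from the scan date in the file headers alone.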

Additional observations from a re-analysis of the deposited data

How the results depend on the processing

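No single-gene difference past the threshold reversed or was lost in any alternative run, and of 775 recomputed differences that did not pass, 74 had the opposite sign. Tbp, adult over E12.5, passed in all 27 alternatives. Of the 6 genes, adult over E12.5 called 2 with normexp (on median signals, added after seeing the data), 3 with no scaling, 3 with quantile normalization, 2 with the 75th percentile of probes detected on all arrays, 2 with the mean of the 6 genes, 2 with the median of spots, 3 with the slide block, 2 with that block and E17.5 replicate 1 left out (also added), and 1 to 2 with 1 array left out, beside 1 in the report. Of the 37357 features, this comparison called 18009 with normexp, 18275 with no scaling, 20171 with quantile normalization and 18800 with detected probes, beside 18978. It called 17217 with the mean of the 6 genes, 18979 with the median of spots and 11844 with the slide block. With that block and E17.5 replicate 1 left out the number was 10054, and with 1 array left out it was 16089 to 20793. Adult over neonatal called 2 with normexp, no scaling, quantile normalization and within the second slide, 1 with detected probes, the mean of the 6 genes, the slide block and the block without E17.5 replicate 1, and 0 to 1 with 1 array left out, beside 0. The F test called 2 with normexp, no scaling, the slide block and the block without E17.5 replicate 1, 3 with quantile normalization, 1 with detected probes and the mean of the 6 genes, and 0 to 2 with 1 array left out, beside 0. Neonatal over E17.5 called 0 to 1, Gusb without E17.5 replicate 3 (0.55, adjusted p = 0.0485 by limma). In adult over E12.5, Hprt passed at -0.84 with normexp, -1.18 with no scaling, -0.94 with quantile normalization, -0.79 with detected probes, -0.80 with the median of spots and -1.63 with the slide block, did not pass at -1.34 with that block and E17.5 replicate 1 left out, and ranged from -0.92 to -0.48 with 1 array left out. Gusb passed at -0.80 with no scaling, -0.49 with quantile normalization, -1.20 with the slide block and -1.0 without E17.5 replicate 1 in that block. Gapdh passed at 0.73 with the mean of the 6 genes and ranged from 0.36 to 0.67 with 1 array left out. Spans moved by more than the SD for Gapdh (0.17 with no scaling, 0.14 with quantile normalization), Hprt (1.29), Tbp (1.32) and Gusb (0.98 with no scaling, as for these last 3). Pairs called in adult over E12.5 numbered 3 with the slide block and 4 to 8 with 1 array left out, and in the F test 2 (without adult replicate 3) to 8 (without E12.5 replicate 1), beside 5 and 4; these fits were added after seeing the data. Ppia to Tbp was lost in 5 of 17 alternatives in adult over E12.5, Gapdh to Gusb in 1 of 17 (the slide block), and Ppia to Gusb in 4 of 18 in adult over neonatal liver. Pairs called in adult over neonatal liver numbered 5 within the second slide and 3 to 6 with 1 array left out, beside 4. The cause of these moves was not tested. Calls over all features moved too. E14.5 over E12.5 called 1843, but 3004 with normexp, 1120 scaled on the median and 1140 without a filter. E17.5 over E14.5 called 2655, but 1135 with no scaling and 1477 on the median. Neonatal over E17.5 called 6747, but 4185 with no scaling and 2265 with the slide block. With 1 array left out, E14.5 over E12.5 called 673 to 2603, with moves over 1.5-fold without E12.5 replicate 3 (1013) or E14.5 replicates 1 (673) or 3 (817); E17.5 over E14.5 called 1380 to 3287, lowest without E14.5 replicates 1 (1380), 2 (1421) or 3 (1591); and neonatal over E17.5 called 3611 to 13308, low without E17.5 replicates 1 (4411) or 2 (3611) or neonatal replicates 2 (3674) or 3 (3726), and highest without E17.5 replicate 3 (13308). The span of Actb ran from 0.23 to 0.52 and that of Ppia from 0.27 to 0.49 with 1 array left out. Replicate numbers did not pair the samples: over 30 pairs of arrays of different stages with the same number, deviations from the stage means correlated at -0.24 to 0.48, 7 of them above 0.1. With the replicate block, Tbp in adult over E12.5 was -0.85 (adjusted p = 0.00957), the count called stayed 1, and no other call on the 6 genes changed. Scaling on spike-ins was not run, as 2 of 10 spike-in probes were well above background on all arrays; the authors' value table gave no value for these probes, and no gene had another probe. The highest Tbp signal was 0.297% of scanner saturation.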
